A study of Mus musculus with 4 samples.

Results

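The 9 genes described here encode transcription factors of the myeloid lineage: Spi1, Cebpa, Cebpb, Cebpd, Maf, Runx1, Mitf, Tfe3 and Tfec. They were chosen by name, and each matched 1 of the 54532 genes in the deposited tables. Polyadenylated RNA had been sequenced from RAW 264.7 cells, a mouse macrophage line established from a tumour raised with Abelson leukaemia virus. The 4 groups were untreated wild type, untreated Hnrnpul1-/- (called knockout below), and wild type and knockout given lipopolysaccharide (LPS), which bacteria shed and macrophages detect through TLR4, at 100 ng/ml over 10 h. Each group held 1 library, so no value has a replicate. The sources used here do not say whether the knockout line came from 1 clone.

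PU.1, the product of Spi1, is an ETS factor that opens macrophage enhancers and is needed for the myeloid lineage. C/EBP alpha (Cebpa) commits progenitors to granulocytes and monocytes, while C/EBP beta and delta (Cebpb, Cebpd) are best known as factors induced by inflammatory signals. RUNX1 binds DNA with its partner CBF beta and acts early in blood formation. MAF restrains proliferation of mature macrophages. MITF, TFE3, TFEB and TFEC form the MiT family, which binds E-boxes and acts on lysosomal genes and, in osteoclasts, on bone resorption genes.

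Total counts ranged from 17045432 to 17909549 reads. Levels are given as normalized CPM, which are reads relative to the TMM-scaled library total, and differences as log2 ratios of these levels between a pair of libraries. Their 95% intervals hold counting error alone. Copies made by PCR were not marked, so reads are not independent molecules, and none of the ratios tests a condition. A gene was called when its ratio reached 2-fold and its interval excluded no change. Of 10 macrophage markers, 9 passed the filter on low counts, a mean of 1 CPM, while Mertk, a receptor for dying cells, had at most 1 read in a library. The summed level of the 10 was 3578 CPM in wild-type cells and 3139 in knockout without LPS, and 8384 and 5628 with it. Markers of B cells, T cells, neutrophils, mast cells, melanocytes, fibroblasts and erythroid cells summed to at most 4.04 CPM per list and library. The defining markers Ms4a1, Cd3e, Elane, Fcer1a, Dct, Col1a2 and Gata1 had 0 reads in every library. Other listed markers did not: Pax5, a B cell factor, had 0 reads in both untreated libraries and 61 in wild type and 29 in knockout with LPS, and was called lower in LPS-treated knockout (log2 ratio -1.14, -1.83 to -0.48). Cd28 of the T cell list had 49 and 60 reads untreated and 0 and 3 with LPS, and Cd79b of the B cell list 15 and 1 untreated and 0 and 22 with LPS. Hnrnpul1, the targeted gene, had 5086 and 447 reads in wild type and knockout without LPS and 3114 and 350 with it. It was at 8.62% of its wild-type level in untreated knockout and at 10.7% under LPS. With total counts in place of TMM, the median LPS log2 ratio of all genes moved from -0.004 to -0.30 in wild type and from -0.02 to -0.33 in knockout, so LPS ratios below are relative to that choice.

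Of the 9 factors, 7 passed the filter and 2 did not: Maf and Tfec were listed at 0 reads in all 4 libraries. A count of 0 allows at most 3 reads, which was 0.158 CPM in wild-type cells and 0.155 in knockout without LPS, and 0.195 and 0.186 with it. With LPS, 3 of the 7 were called higher in wild type (Cebpb, Cebpd and Mitf) and 2 in knockout (Cebpb and Cebpd). Cebpa was called lower in both. Of all genes tested, 11.2% were called higher and 10.1% lower in wild type (21.4% in all), while knockout had 11.6% and 12.0% (23.6% in all). These shares are the background for every list count with LPS below. Between genotypes, 0 of the 7 were called untreated, where 1.15% of all genes were called higher and 0.861% lower, and 0 under LPS, where 1.66% were called higher and 1.83% lower. For the difference of the LPS ratio between genotypes, 0 of the 7 were called, with 1.19% of all genes higher and 1.84% lower. The median log2 ratio of the 7 was 0.67 in wild type and 0.47 in knockout, beside -0.004 and -0.02 for all genes tested. Between genotypes it was -0.12 untreated and -0.13 under LPS, beside 0.007 and 0.001. Fewer cells of a type and less RNA per cell cannot be told apart in these bulk libraries.

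**Figure D1:**
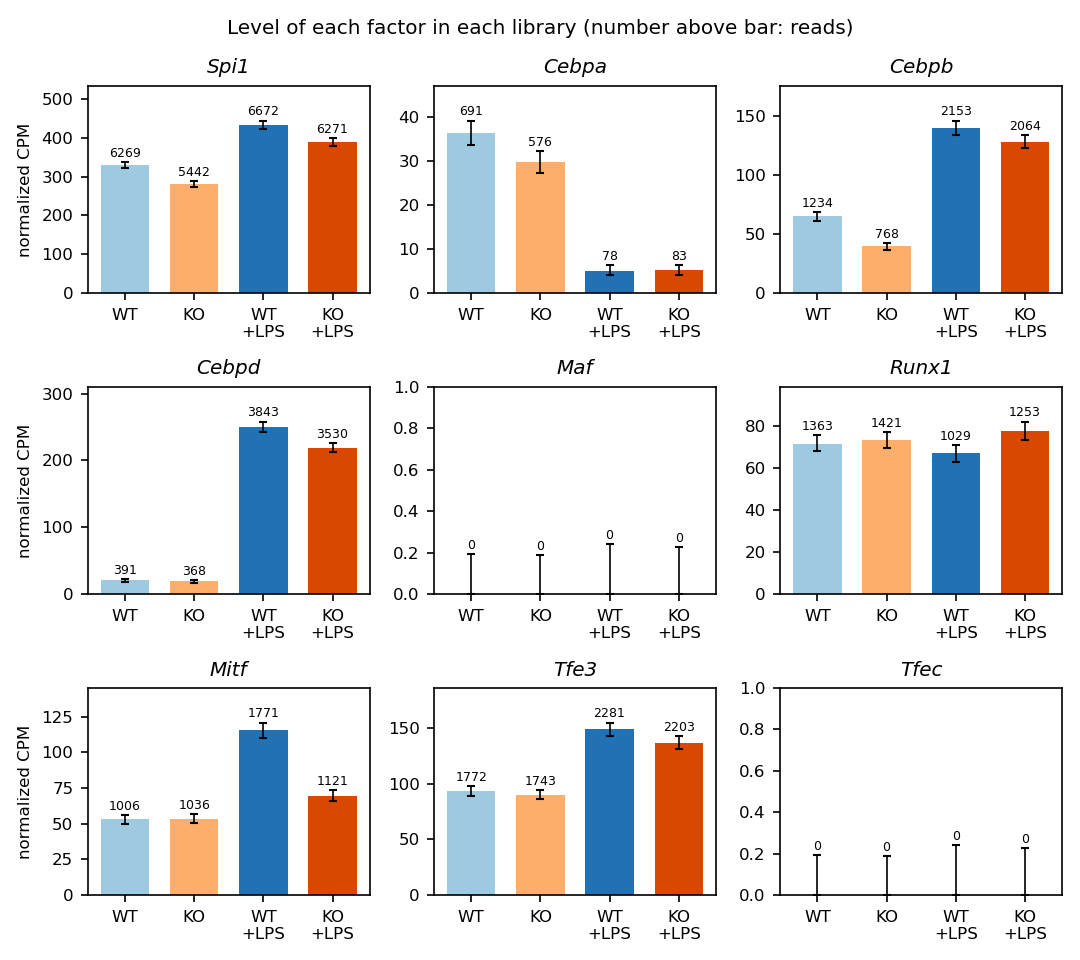
Level of each of the 9 factors in the 4 libraries, 1 bar per library, in normalized CPM from 0; lines are 95% Poisson intervals and the number above a bar is its read count. Cebpa dropped to 78 and 83 reads with LPS, Cebpd stood at 3843 and 3530, and Maf and Tfec had 0 throughout.

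An additive model over the 4 libraries (edgeR's quasi-likelihood test, Benjamini-Hochberg adjustment over 11640 genes) was the only fit with an error term. Its error for a gene starts from the disagreement of the LPS ratio between the genotypes, with 1 residual degree of freedom. That error is then moderated by values shared over all genes tested, so a p-value rests largely on other genes. The fit cannot tell an interaction from noise and does not stand in for replicate cultures. The LPS effect passed at an adjusted p below 0.05 for 60.3% of all genes tested (30.2% higher, 30.1% lower). It passed for 6 of the 7 factors, 5 higher and Cebpa lower. The genotype effect passed for 1.92% of all genes (0.988% higher, 0.928% lower) and for 0 of the 7. Of these 7, 3 had an unadjusted p below 0.05: Spi1 (0.0188), Cebpb (0.0132) and Mitf (0.0431). Over all genes tested, 1542 of 11640 had an unadjusted p below 0.05 for genotype in this test. DESeq2 on the same model also called 0 of the 7 for genotype.

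Per kilobase of transcript, the scale on which genes can be compared, Spi1 led in every library. The level was 122.5 CPM per kb in wild-type cells and 104.3 in knockout without LPS, and 161.2 and 144.5 with it. It ranked between place 306 and place 373 of the 10334 protein-coding genes tested. Cebpb came next in all 4 libraries. In untreated wild type it was followed by Cebpa (13.8 CPM per kb), Tfe3 (10.07), Mitf (8.55), Runx1 (5.97) and Cebpd (5.495). The intervals of Runx1 and Cebpd overlapped there, and those of no other neighbours among the 7. With LPS the order changed: Cebpd took the third place and Cebpa the last of the 7 in both genotypes. Mitf stood above Tfe3 in LPS-treated wild type (18.6 and 16.04) and below it in LPS-treated knockout (11.2 and 14.8). The deposited exon lengths run from 1504 bases for Cebpb to 12025 for Runx1 and join all annotated transcripts, which lowers the per-kilobase level of genes with several transcripts.

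Spi1 (ENSMUSG00000002111, GRCm38 chromosome 2, 91082390 to 91115756, plus strand) was the most abundant of the factors. It had 6269 reads in wild-type cells and 5442 in knockout without LPS, and 6672 and 6271 with it. On the normalized scale the LPS-treated libraries were the higher ones in both genotypes, and knockout was below wild type in both treatments. Its LPS log2 ratio was 0.40 (0.35 to 0.45) in wild-type cells and 0.47 (0.42 to 0.52) in knockout, under the 2-fold rule. The additive fit put the LPS effect at 0.43 (edgeR, adjusted p = 6.8e-04). With total counts that effect was 0.13 and no longer passed (edgeR, adjusted p = 0.101). Knockout to wild type, the log2 ratio was -0.23 (-0.28 to -0.18) untreated and -0.16 (-0.21 to -0.11) under LPS, with an adjusted p of 0.248 in edgeR's additive fit.

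PU.1 has close relatives in Spi-B (Spib) and Spi-C (Spic). Spic had 0 reads in every library, and Spib had 1 read in each untreated library, and with LPS 6 in wild type and 79 in knockout. Spib thus passed the filter through a single library, LPS-treated knockout. Its log2 ratio there was 3.65 (2.46 to 5.14) against LPS-treated wild type and 6.57 (4.05 to 11.89) against untreated knockout. Even so, Spib made up 1.17% of the per-kilobase sum of the PU.1 subfamily in LPS-treated knockout, and Spi1 98.8%.

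Among 15 other ETS factors listed, 12 passed the filter. With LPS, 2 were called higher and 0 lower in wild type, and 3 higher and 1 lower in knockout. Over all genes tested, 11.2% were called higher and 10.1% lower in wild type, and 11.6% and 12.0% in knockout. Of the 3 higher in knockout, Spib passed the filter only through LPS-treated knockout, so that its direction was fixed by the filter. Ets2, a target of RAS-MAPK signalling, went from 221.2 to 648.6 CPM in wild type and from 253.9 to 713.6 CPM in knockout. Elk1, a serum response partner, had LPS log2 ratios of 1.17 and 1.16. Its repressive relative Elk3 had -0.92 and -1.13. The list's median LPS log2 ratio was 0.23 in wild type and 0.25 in knockout.

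Of 19 genes listed as known PU.1 targets, 18 passed the filter, and 6 of the 19 are also among the macrophage markers. With LPS, 8 were called higher and 1 lower in wild type, and 7 and 1 in knockout, with medians of 0.66 and 0.31. Over all genes tested, 11.2% were called higher and 10.1% lower in wild type, and 11.6% and 12.0% in knockout, with medians of -0.004 and -0.02. Msr1, a scavenger receptor, had 10 and 40 reads untreated in wild type and knockout and 5012 and 6350 with LPS. Itgam, the CD11b integrin chain, had LPS log2 ratios of 2.50 and 2.38, Cd14, the LPS co-receptor, 2.25 and 1.97, and Fcgr1, a high-affinity IgG receptor, 2.003 and 1.87. Between genotypes, Msr1 was called higher in untreated knockout (1.97, 0.95 to 3.14). Lyz2, lysozyme, was called lower in LPS-treated knockout (-1.42, -1.45 to -1.40). In these genotype comparisons 2.02% of all genes were called untreated and 3.49% under LPS.

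The C/EBP genes moved in opposite directions with LPS. Cebpa (ENSMUSG00000034957, chromosome 7, 35119293 to 35121928, plus strand) had 691 reads in wild-type cells and 576 in knockout without LPS, and 78 and 83 with it. Both LPS-treated libraries were far below both untreated ones. The LPS log2 ratio was -2.84 (-3.20 to -2.50) in wild-type cells and -2.53 (-2.88 to -2.19) in knockout, so that 13.97% and 17.3% of the untreated level remained. The additive LPS effect was -2.68 (edgeR, adjusted p = 1.7e-06). In the order of LPS ratios Cebpa lay at percentile 0.722 of all genes tested in wild type and 1.45 in knockout.

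Cebpb (ENSMUSG00000056501, chromosome 2, 167688915 to 167690418, plus strand) had 1234 reads in wild-type cells and 768 in knockout without LPS, and 2153 and 2064 with it. The LPS-treated libraries were alike and high, and untreated knockout was the lowest. The LPS log2 ratio was 1.11 (1.01 to 1.21) in wild-type cells and 1.69 (1.57 to 1.81) in knockout, and the additive LPS effect 1.39 (edgeR, adjusted p = 3.7e-05). With total counts the wild-type ratio was 0.81, under the 2-fold rule. In knockout, Cebpb was at 61.04% of the wild-type level untreated (log2 ratio -0.71, -0.84 to -0.58) and at 91.4% under LPS (-0.13, -0.22 to -0.04). The untreated ratio lay at percentile 2.14 of all genes tested. It was under the 2-fold rule and past a 1.5-fold one, which called 569 genes in place of 234.

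Cebpd (ENSMUSG00000071637, chromosome 16, 15887286 to 15891031, plus strand) had 391 reads in wild-type cells and 368 in knockout without LPS, and 3843 and 3530 with it. The LPS-treated libraries stood 12.2-fold above the untreated one in wild type and 11.5-fold in knockout. As log2 ratios these were 3.60 (3.45 to 3.76) and 3.53 (3.37 to 3.69), and the additive LPS effect was 3.57 (edgeR, adjusted p = 2.5e-08). Knockout to wild type, Cebpd had log2 ratios of -0.12 (-0.32 to 0.09) untreated and -0.19 (-0.26 to -0.12) under LPS.

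On the per-kilobase scale, the make-up of C/EBP mRNA differed between untreated and LPS-treated cells. Cebpb accounted for 55.04% of the sum of Cebpa, Cebpb, Cebpd, Cebpe and Cebpg in untreated wild type and 51.6% in LPS-treated wild type. Cebpa went from 17.6% to 1.07% and Cebpd from 7.002% to 36.9%. In knockout, Cebpa went from 19.1% to 1.18% and Cebpd from 8.57% to 35.2%. The sum itself was 78.5 CPM per kb in wild-type cells and 59.2 in knockout without LPS, and 180.9 and 166.1 with it.

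**Figure D2:**
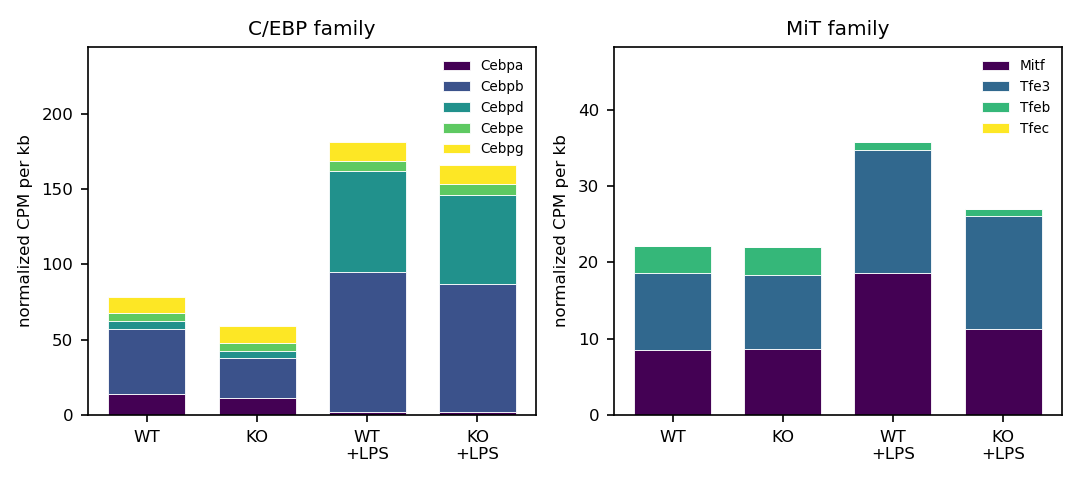
Stacked levels of the C/EBP family (left) and the MiT family (right) in the 4 libraries, in normalized CPM per kilobase. With LPS the Cebpd segment grew to 66.8 and 58.5 CPM per kb and Cebpa shrank to 1.93 and 1.96, and in the MiT family LPS-treated wild type had the tallest bar, 35.7 CPM per kb.

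Cebpb and Cebpd each lie over exons of a gene on the opposite strand. The sources used here do not say whether reads were counted by strand. By GENCODE M21, whose gene spans and exon lengths matched the deposited ones for all 9 factors, Cebpb shares 312 exon bases (20.7% of its length) with Tmem189 and Cebpd shares 562 with Spidr. Tmem189 had 949 reads in wild-type cells and 1023 in knockout without LPS, and 1615 and 1665 with it, and Spidr 828, 788, 747 and 716 in the same order. Their part in the counts of Cebpb and Cebpd was not tested. Genes over the other factors had 0 to 7 reads.

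The 250 bases before the RefSeq start (GRCm38.p6) of Cebpa and Cebpb are shown because these genes went opposite ways with LPS.
Cebpa (chr7:35119043-35119292, plus strand): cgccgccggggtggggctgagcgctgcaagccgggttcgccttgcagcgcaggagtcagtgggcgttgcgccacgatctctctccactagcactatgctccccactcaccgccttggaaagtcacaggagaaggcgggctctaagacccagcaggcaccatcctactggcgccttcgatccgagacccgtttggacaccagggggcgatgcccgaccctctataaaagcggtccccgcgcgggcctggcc
Cebpb (chr2:167688665-167688914, plus strand): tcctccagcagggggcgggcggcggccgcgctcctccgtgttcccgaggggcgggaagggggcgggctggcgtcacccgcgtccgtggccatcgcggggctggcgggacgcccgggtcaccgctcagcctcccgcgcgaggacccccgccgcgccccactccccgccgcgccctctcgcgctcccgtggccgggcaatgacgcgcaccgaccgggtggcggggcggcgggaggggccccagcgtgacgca
Capitals would mark a match to any of 10 motifs searched on both strands, and neither window holds one. The motifs were C/EBP (TTGCNNAA), PU.1 (GAGGAAGT), the E-box of MiT factors (CACGTG), the M-box (TCACGTGA, which contains that E-box), RUNX (TGTGGT), CRE (TGACGTCA), AP-1 (TGANTCA), the CCAAT box (CCAAT), ISRE and the NF-kB consensus. Among 32851 RefSeq windows of this length, the share with a match was 9.56% for C/EBP, 2.44% for PU.1, 6.02% for the E-box, 0.785% for the M-box, 14% for RUNX, 1.55% for CRE, 6.75% for AP-1, 33.8% for the CCAAT box, 2.98% for ISRE and 3.90% for NF-kB. Both windows are rich in CpG, with 22 CpG dinucleotides in Cebpa and 41 in Cebpb against a median of 6 over all windows. Of the 9 factors, 6 had an entry in this table.

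Of 5 other C/EBP genes and regulators listed, 4 passed the filter, and 2 were called higher with LPS in each genotype and 0 lower. Ddit3, the stress-induced C/EBP relative CHOP, had LPS log2 ratios of 2.60 (2.30 to 2.92) in wild-type cells and 2.02 (1.76 to 2.28) in knockout. Trib1, a pseudokinase that brings C/EBP alpha protein to its ubiquitin ligase, had 2.09 (1.83 to 2.36) and 1.71 (1.45 to 1.98). Cebpe had 0.19 and 0.63 and Cebpg 0.27 and 0.16, and Trib2 had 0 reads throughout.

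Of 17 genes listed as C/EBP targets, 2 of them shared with the PU.1 targets, 9 passed the filter and 8 did not. The 8 include the granule genes Elane, Ltf and Chil3, with 0 reads in every library. With LPS, 7 were called higher in wild type and 6 in knockout, and 0 lower. Of the 9, 3 (Il1b, Il6 and Lcn2) passed the filter only through the LPS-treated libraries, so that their direction was fixed by the filter. The leading ones were Il1b and Il6, both at 0 reads untreated, Ptgs2, the inducible cyclooxygenase (LPS log2 ratios of 10.16 and 10.17), and the iron-scavenging protein gene Lcn2 (9.47 and 12.03, the latter on 1 untreated read). All 4 are known to rise with inflammatory signals, so their direction is no independent evidence about C/EBP factors. Under LPS, Il6 and Il1b were called higher and Lyz2 lower in knockout, where 1.66% of all genes tested were called higher and 1.83% lower. In edgeR's additive fit genotype passed for 3 of the 9 as higher (Il6, Il1b and Ptgs2) and for Lyz2 as lower. Over all genes tested, 0.988% passed as higher and 0.928% as lower.

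**Figure D3:**
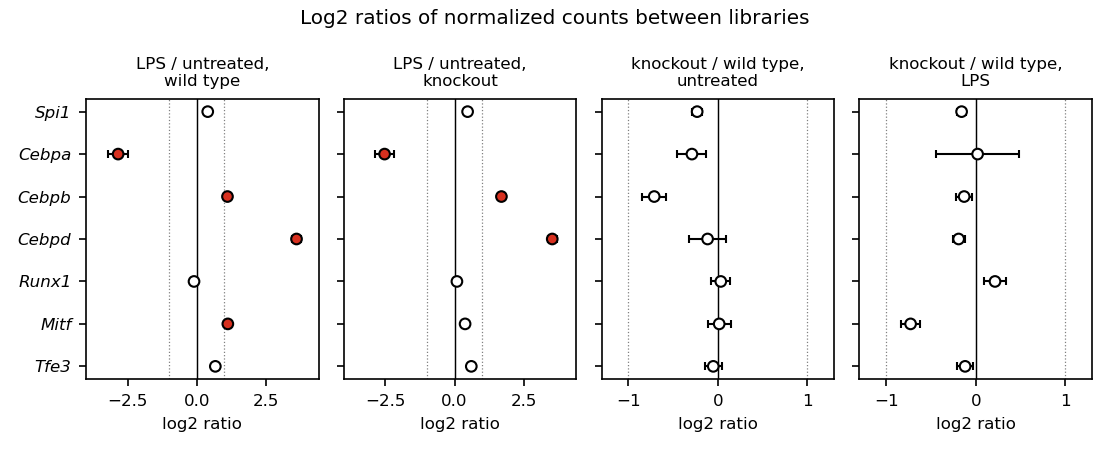
Log2 ratios of the 7 measured factors in the 4 comparisons, with 95% counting intervals; filled points were called at 2-fold (dotted lines), open points were not. The LPS panels span a wider axis than the genotype panels, in which no factor reached 2-fold and Cebpb untreated (-0.71) and Mitf under LPS (-0.73) lay furthest from 0.

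Maf (ENSMUSG00000055435, chromosome 8, 115682942 to 115707794, minus strand) had no read in any library. All 7 genes listed as MAF targets, which include the complement genes C1qa, C1qb and C1qc, the scavenger receptor gene Cd163 and Il10, had 0 to 2 reads in each library.

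Small MAF proteins lack an activation domain and pair with CNC factors such as NRF1 and NRF2, and transcripts of their genes were detected in all 4 libraries. Maff went from 7.21 to 31.2 CPM with LPS in wild type and from 6.45 to 42.4 CPM in knockout. Mafk had LPS log2 ratios of 1.54 and 1.68. Nfe2l1, which encodes NRF1, had 0.98 and 1.19. Of 10 listed MAF relatives and partners, 6 passed the filter. With LPS, 2 were called higher in wild type and 3 in knockout, and 0 lower in either.

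Runx1 (ENSMUSG00000022952, chromosome 16, 92601466 to 92826149, minus strand) had the LPS ratios closest to 0 among the 7 with TMM scaling, though not with total counts. It had 1363 reads in wild-type cells and 1421 in knockout without LPS, and 1029 and 1253 with it, or 71.8, 73.4, 67.02 and 77.8 CPM. The 4 libraries lay close together. Its LPS log2 ratio was -0.10 (-0.22 to 0.02) in wild-type cells and 0.09 (-0.03 to 0.20) in knockout, and the additive LPS effect -0.006 (edgeR, adjusted p = 0.956). With total counts the ratios were -0.40 and -0.23, and the effect of -0.31 passed the test (edgeR, adjusted p = 0.0115). Knockout to wild type, the log2 ratio was 0.03 (-0.08 to 0.14) untreated and 0.22 (0.10 to 0.34) under LPS.

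Runx1 made up 93.8% to 97.3% of the per-kilobase sum of RUNX genes. Runx2, the osteoblast factor, had 43 reads in wild-type cells and 62 in knockout without LPS, and 19 and 45 with it, and Runx3 had 0 to 4. Runx2 was called higher in knockout under LPS (log2 ratio 1.18, 0.37 to 2.03). The partner gene Cbfb had LPS log2 ratios of -0.69 (-0.77 to -0.62) and -0.75 (-0.83 to -0.67). Cbfa2t3, a corepressor of the ETO family that RUNX1 fusion proteins are known for, had 116 and 114 reads in the untreated libraries and 0 and 4 with LPS. In wild type the log2 ratio against a floor of 3 reads was -4.97, with a counting limit of -4.64, and in knockout the log2 ratio was -4.57 (-6.47 to -3.17). Of 10 listed relatives and cofactors, 7 passed the filter, and with LPS 0 were called higher and 1 lower in each genotype. Over all genes tested, 10.1% were called lower in wild type and 12.0% in knockout. That 1 was Cbfa2t3, which passed the filter only through the untreated libraries, so that its direction was fixed by the filter.

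Within the MiT family, Mitf was higher with LPS, and by less in knockout than in wild type. Mitf (ENSMUSG00000035158, chromosome 6, 97807052 to 98021349, plus strand) had 1006 reads in wild-type cells and 1036 in knockout without LPS, and 1771 and 1121 with it. The corresponding levels were 52.96, 53.5, 115.3 and 69.6 CPM, and LPS-treated wild type stood apart from the other three. The LPS log2 ratio was 1.12 (1.01 to 1.24) in wild-type cells and 0.38 (0.26 to 0.50) in knockout. With total counts these were 0.83, under the 2-fold rule, and 0.07. In knockout, Mitf was at 101.0% of the wild-type level untreated (log2 ratio 0.01, -0.11 to 0.14) and at 60.4% under LPS (-0.73, -0.84 to -0.62). The latter lay at percentile 4.07 of all genes tested and was not called at 2-fold. It was past a 1.5-fold rule, which called 987 genes under LPS in place of 406. The LPS ratio in knockout was lower than that in wild type by a log2 difference of -0.74 (-0.91 to -0.58), also under the 2-fold rule, which 3.02% of genes passed for this difference. The summed macrophage markers were also lower in knockout under LPS (5628 against 8384 CPM), and their part in the Mitf difference was not tested. Most of that gap was Lyz2, at 3334 CPM in wild type and 1245 in knockout. Of the 9 markers tested, 3 were higher in knockout under LPS: Adgre1 (log2 ratio 0.77), Itgam (0.31) and Ptprc (0.14). The others were lower, among them Csf1r (-0.69) and Fcgr1 (-0.39), and the median of the 9 was -0.27. In edgeR's additive fit the LPS effect on Mitf was 0.76 (adjusted p = 0.00304) and the genotype effect -0.37 (adjusted p = 0.359).

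Mitf has 3 RefSeq starts in this table, and the counts per gene cannot be split among them. The 250 bases before each are shown because those counts join all annotated transcripts of the gene. From the most upstream start to the most downstream, the bases after the start were found in 3, 1 and 0 GENCODE M21 transcripts of Mitf.
Mitf, most upstream start (chr6:97806808-97807057, plus strand): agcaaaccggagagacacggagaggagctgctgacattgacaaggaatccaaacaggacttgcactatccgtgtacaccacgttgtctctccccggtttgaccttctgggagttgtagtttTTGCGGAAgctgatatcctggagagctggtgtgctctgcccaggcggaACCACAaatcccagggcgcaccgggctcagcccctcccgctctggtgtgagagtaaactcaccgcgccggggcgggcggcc
Mitf, middle start (chr6:97929567-97929816, plus strand): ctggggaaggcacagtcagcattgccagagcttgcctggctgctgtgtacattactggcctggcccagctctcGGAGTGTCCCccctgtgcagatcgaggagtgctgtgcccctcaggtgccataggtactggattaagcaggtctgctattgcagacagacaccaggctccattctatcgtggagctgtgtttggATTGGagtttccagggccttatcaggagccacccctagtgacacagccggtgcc
Mitf, most downstream start (chr6:97991533-97991782, plus strand): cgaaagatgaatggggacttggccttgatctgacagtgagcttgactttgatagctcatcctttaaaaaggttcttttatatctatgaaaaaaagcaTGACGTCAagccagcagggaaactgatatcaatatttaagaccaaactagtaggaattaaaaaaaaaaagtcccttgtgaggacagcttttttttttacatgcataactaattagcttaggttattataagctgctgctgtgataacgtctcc
Capitals mark matches to the motifs named above. The most upstream window holds a C/EBP match from -129 to -122 and a RUNX match from -81 to -76, counted from the start. The middle window holds an NF-kB consensus match from -177 to -168 and an inverted CCAAT box from -54 to -50. The most downstream window holds a CRE from -153 to -146. A match is a description of the letters and not a site. Markers of melanocytes, the cells MITF is best known for, were nearly absent: Dct, Tyr, Tyrp1 and Mlana had 0 reads in every library, and the 5 listed markers summed to 4, 0, 0 and 1 reads.

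Tfe3 (ENSMUSG00000000134, X chromosome, 7762560 to 7775202, plus strand) had 1772 reads in wild-type cells and 1743 in knockout without LPS, and 2281 and 2203 with it. Both LPS-treated libraries were above both untreated ones. The LPS log2 ratio was 0.67 (0.58 to 0.76) in wild-type cells and 0.60 (0.51 to 0.70) in knockout, and 0.37 and 0.29 with total counts. The additive LPS effect was 0.64 (edgeR, adjusted p = 1.1e-04). Knockout to wild type, the log2 ratio was -0.05 (-0.15 to 0.04) untreated and -0.12 (-0.20 to -0.03) under LPS. Tfec (ENSMUSG00000029553, chromosome 6, 16833373 to 16898441, minus strand), the family member known as macrophage-restricted, had no read in any library. The 0 is given as deposited, and whether it reflects the gene's expression in these cells was not tested.

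Tfeb, the remaining family member, was lower with LPS. It had 379 and 400 reads in untreated wild type and knockout and 92 and 89 with LPS. Its LPS log2 ratio was -1.74 (-2.08 to -1.40) in wild-type cells and -1.90 (-2.25 to -1.57) in knockout. As a share of the family's per-kilobase sum, Tfeb went from 15.9% to 2.96% in wild type and from 16.6% to 3.61% in knockout. Mitf went from 38.6% to 52.1% in wild type and from 39.2% to 41.6% in knockout, and Tfe3 made up 44.2% to 54.8%. Of 10 MiT relatives and regulators listed, 9 passed the filter. With LPS, 0 were called higher in either genotype, and 2 were called lower in wild type and 1 in knockout. Rragb, a Rag GTPase that recruits MiT factors to lysosomes, had LPS log2 ratios of -1.02 and -0.88, its relative Rraga 0.68 and 0.81, and Fnip1, a partner of folliculin, 0.59 and 0.38.

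**Figure D4:**
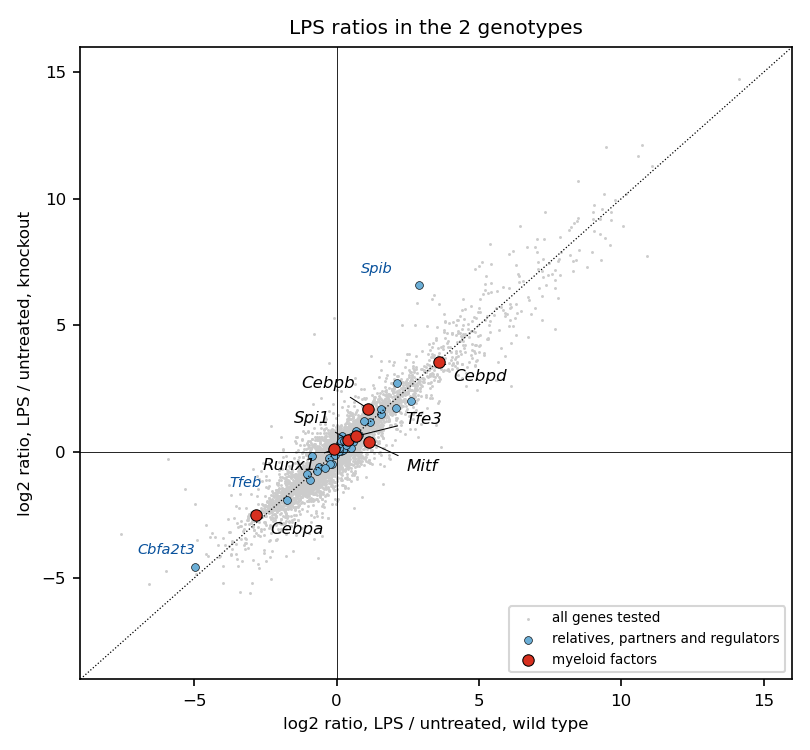
LPS log2 ratio in wild type (x) against knockout (y), 1 point per gene: all genes tested (grey), relatives, partners and regulators of the factors (blue) and the 7 measured factors (red), with the line of equal ratios dotted. Mitf lies below the line and Cebpb above it, while Cebpa and Cebpd lie close to it.

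MiT factors are known for targets in osteoclasts and in lysosomes, and both lists were compared between genotypes. Of 10 osteoclast targets, 7 passed the filter. In knockout, 1 was called lower untreated and 3 under LPS, and 0 were called higher in either, with medians of -0.35 and -0.96. Over all genes tested, 0.861% were called lower untreated and 1.83% under LPS, and the medians were 0.007 and 0.001. The untreated call, and 1 of the 3 under LPS, was Acp5, which passed the filter mainly through the wild-type libraries. It stood at 2.63 CPM there untreated and 2.02 with LPS, and at 1.14 and 0.807 in knockout. The filter thus favoured its lower direction. Of 16 lysosomal targets, all of which passed, 0 were called in either genotype comparison, with medians of 0.02 and -0.14. The difference between the lists was not tested.

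Gpnmb, a lysosomal glycoprotein and known MITF target, carried the most reads of the osteoclast list. It stood at 829.9 CPM in wild-type cells and 556.1 in knockout without LPS, and 333.9 and 129.7 with it. Its log2 ratio, knockout to wild type, was -0.58 (-0.61 to -0.54) untreated and -1.36 (-1.44 to -1.29) under LPS, and genotype passed edgeR's additive fit (adjusted p = 0.0242). Atp6v0d2, an osteoclast proton pump subunit, had 73 and 55 reads in wild type and knockout without LPS, and 23 and 7 with it. Acp5, tartrate-resistant acid phosphatase, had 50, 22, 31 and 13 reads in the same order. Both were called lower in knockout under LPS, with log2 ratios of -1.78 (-3.25 to -0.52) and -1.32 (-2.38 to -0.35). Acp5 was also called untreated (-1.21, -2.01 to -0.46). For neither did genotype pass edgeR's additive fit (adjusted p = 0.431 for Atp6v0d2 and 0.158 for Acp5). The fusion gene Dcstamp had 0.21 and -0.13. Among lysosomal targets, the autophagy receptor gene Sqstm1 had the highest LPS ratios (2.99 and 2.90), while Wipi1 had -1.26 and -2.04.

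**Figure D5:**
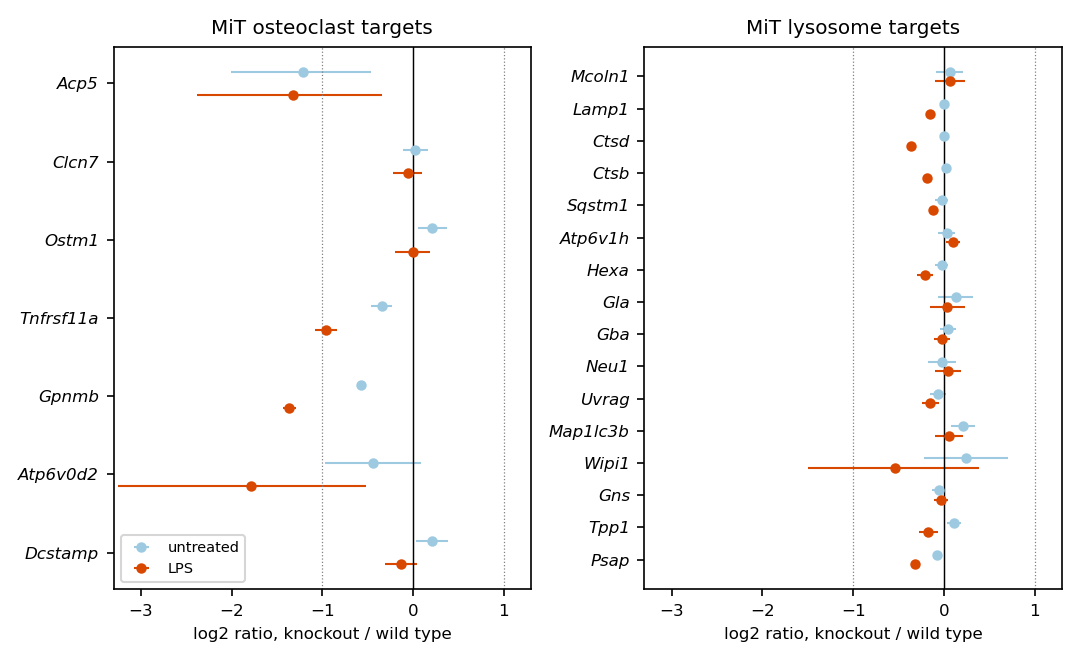
Log2 ratio of knockout to wild type, untreated (light) and under LPS (dark), for listed MiT targets in osteoclasts (left) and lysosomes (right) that passed the filter, with 95% counting intervals and dotted lines at 2-fold. Gpnmb, Atp6v0d2 and Acp5 lie beyond 2-fold under LPS at -1.36, -1.78 and -1.32, and no lysosomal target does.

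Of 24 other genes listed as myeloid determinants, not all of them specific to that lineage, 16 passed the filter. With LPS, 4 were called higher and 3 lower in wild type, and 4 each in knockout, while 0 were called in either genotype comparison. In the additive fit genotype passed for 1 of the 16, Nfatc1, the osteoclast NFAT factor (-0.64, edgeR adjusted p = 0.0346), which is named after its values were seen. Myc, a transcription factor of proliferating cells, had 7 and 4 reads untreated and 739 and 791 with LPS, and passed the filter only through the LPS-treated libraries. Irf8, the monocyte factor that pairs with PU.1, went from 92.3 to 301.2 CPM in wild type and from 93.4 to 492.9 CPM in knockout. Its log2 ratio between genotypes was 0.02 (-0.08 to 0.11) untreated and 0.71 (0.66 to 0.76) under LPS. Klf4, a monocyte factor, had 50 and 40 reads in wild type and knockout without LPS, and 6 and 12 with it. It passed the filter only through the untreated libraries, so that its direction was fixed by the filter. Bhlhe40 had LPS log2 ratios of -1.36 and -1.45. The progenitor genes Meis1, Hoxa9 and Gfi1b, and Pparg, had 0 reads in every library.

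For each factor called with LPS, the protein-coding genes with the most similar profile were sought among 8478 others with a mean of at least 10 CPM, by Euclidean distance between log2 levels over the 4 libraries after centring. Those nearest to Cebpd included Trafd1 (distance 0.12) and Ier3 (0.27), where the median of all was 3.57. The nearest to Cebpa were Nrm (0.20), Plxnd1 (0.21) and the proliferation marker gene Mki67 (0.23), with a median of 2.71. Cebpb was nearest to Gfod1 (0.26), Blcap (0.27) and Vsir (0.27), with a median of 1.52. Mitf was nearest to Abcd4 (0.07), Id1 (0.15) and mt-Atp6 (0.17), with a median of 0.99. The LPS log2 ratios of Abcd4 were 1.17 in wild type and 0.31 in knockout. Only 4 libraries enter these distances. The 4 comparisons share libraries, so the untreated and LPS-treated values of a gene in them are not independent.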

How the data were processed

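Libraries were made from poly-T-selected mRNA by random priming, per the labels' protocols. Tools named in the submitters' processing notes, without roles, were HISAT2 2.0.5, featureCounts 1.5.0-p3 and CASAVA 1.8, with GRCm38 and mm10 as builds. The authors deposited raw whole-number read counts for each gene. The deposited FPKM equal counts per kilobase divided by a constant of the authors that was 1.15 times the total count in wild type and 1.16 in knockout without LPS, and 0.932 and 0.927 with it. The sources used here do not say how it was set.

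Counts were scaled by TMM (edgeR 4.0.16, R 4.3.3) over 11640 genes whose mean CPM reached 1. Ratios of library pairs carry exact conditional (Clopper-Pearson) 95% intervals, and the difference of the LPS ratios a delta-method interval. Counts of 0 were replaced by 3 in ratios. A gene was called at 2-fold with an interval excluding no change. The additive model used edgeR's quasi-likelihood test with Benjamini-Hochberg adjustment and a threshold of 0.05, with DESeq2 1.42.0 as an alternative. In simulated libraries of 11640 genes, the calling rule recovered 98.5% of 200 genes changed 3-fold in the wild-type LPS comparison at counting noise alone, and the additive LPS test 99.5%. At 2-fold, the calling threshold itself, these were 47.5% and 97%. With an assumed biological coefficient of variation of 0.1, intervals covered the true ratio for 57.1% of genes and 36 unchanged genes were called in the 3-fold simulation. These simulations held no genotype effect and the same LPS ratio in both genotypes. They changed 200 genes, where the data had 2489 called with LPS in wild type, so the recovery in the data may be lower.

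The 9 factors and 19 gene lists were chosen with earlier results of these data known. Of each list, up to 4 genes with the largest mean LPS ratio were named, and those called between genotypes; others are named for the list's make-up or for a count of 0. Promoter windows are from RefSeq (GRCm38.p6) and were read with Python 3.11.15. Results on a few further genes are not reported here.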

Additional observations from a re-analysis of the deposited data

Results flagged for a closer look

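The LPS ratio differed between the genotypes beyond counting error for 4 of the 7 measured factors, taken as the knockout log2 ratio less the wild-type one. It was -0.74 for Mitf, 0.58 for Cebpb, 0.18 for Runx1 and 0.074 for Spi1. Over all genes tested, the interval of this difference excluded 0 for 29.6%. With total counts Spi1 was at 0.060 (-0.012 to 0.13), which includes 0. These values rest on 4 libraries without replicates, so they were not tested over cultures.

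Among the related genes named, this difference passed the 2-fold rule for Msr1 (-1.70, -2.70 to -0.70), Atp6v0d2 (-1.35, -2.67 to -0.03) and the macrophage marker Aif1 (-1.86, -3.03 to -0.69). Each of these 3 has a library with 10 reads or fewer. Aif1 was also called higher in untreated knockout (1.46, 0.37 to 2.66). Outside the naming rule, Gfi1, a myeloid repressor named after its values were seen, passed too (-1.20, -1.62 to -0.78), with 162 and 219 reads untreated in wild type and knockout and 231 and 140 with LPS.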

How the results depend on the processing

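No paired analysis was possible because each group held 1 library. Over all genes called, the LPS comparison in wild type gave 2489 and that in knockout 2743. With a mean of at least 10 CPM these were 1568 and 1709, and with a 1.5-fold rule 4432 and 4695; the deposited FPKM gave 1820 in knockout. Total counts moved the split from 1309 higher and 1180 lower to 975 and 1904 in wild type, and from 1345 and 1398 to 989 and 2156 in knockout. Genotype calls numbered 234 untreated and 406 under LPS. They were 567 and 786 with no filter, 43 and 101 with a mean of at least 10 CPM, 569 and 987 with a 1.5-fold rule, 48 and 121 with the whole interval beyond 2-fold, and 107 and 197 with the deposited FPKM. For the difference between the LPS ratios, 352 calls became 596, 62, 756 and 39 under the first 4 of these, and the deposited FPKM turned its split from 138 higher and 214 lower to 132 and 124. The additive genotype effect had 223 calls, and 133 by DESeq2, 142 with total counts and 463 with no filter.

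Of the factors, 4 were called with LPS in wild type and 2 with total counts, which left out Cebpb and Mitf. A 1.5-fold rule called 1 factor untreated between genotypes (Cebpb), 1 under LPS (Mitf) and 1 for the difference (Mitf), where the 2-fold rule called 0. In the additive fit, total counts alone changed calls: Spi1 was lost and Runx1 gained. None of the called factors changed direction under any of these settings. Depth limits Cebpa with LPS, at 78 and 83 reads, and Maf and Tfec at 0. All alternatives run were chosen with earlier results known.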
